A study of Mus musculus with 8 samples.

Results

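Methionine and methyl group metabolism was followed through 10 genes, *Mat1a*, *Mat2a*, *Gnmt*, *Bhmt*, *Ahcy*, *Cbs*, *Cth*, *Pemt*, *Nnmt* and *Dmgdh*, picked by symbol from the 24940 genes of a liver RNA-seq count table. All 10 were among the 12340 genes with enough counts to be tested. The livers came from male C57BL/6 mice, 4 labelled FXRKO and 4 labelled BCL6LKOFXRKO, sequenced as polyA RNA. Both groups were homozygous for loss of FXR, the nuclear bile acid receptor encoded by *Nr1h4*, in the whole body, and both carried Bcl6(fl/fl), *Bcl6* alleles with loxP sites. The BCL6LKOFXRKO mice also carried Alb-Cre, a recombinase driven by the albumin promoter and so directed to hepatocytes, which removes the transcriptional repressor BCL6 there. The comparison therefore asks what loss of hepatocyte *Bcl6* changes in livers that already lack FXR. No liver with intact FXR was analysed here, the ages are not given in the labels, and the study kept its mice fed ad libitum or fasted for 4 hours unless it stated otherwise.

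Methionine is activated to S-adenosylmethionine by methionine adenosyltransferases, and methyltransferases then pass its methyl group to their substrates, leaving S-adenosylhomocysteine, which is hydrolysed to homocysteine. Homocysteine is either methylated back to methionine, with folate or betaine as the donor, or drawn off through transsulfuration toward cysteine, taurine and glutathione. Hepatocytes carry out much of the body's methionine activation and hold the betaine-dependent remethylation branch and the pathway that makes phosphatidylcholine by methylation.

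Of the 10 genes, 5 fell in BCL6LKOFXRKO livers (*Bhmt*, *Cth*, *Ahcy*, *Mat2a* and *Dmgdh*) and 1 rose (*Pemt*), called at an adjusted p under 0.05 in edgeR's quasi-likelihood test with adjustment over all tested genes. *Mat1a*, *Gnmt*, *Cbs* and *Nnmt* did not pass. Over all tested genes 29.7% were called, 16.2% higher and 13.5% lower, beside 1 and 5 of these 10. The same 5 and 1 were the genes whose 4 livers of one group all lay on one side of the 4 livers of the other, which held for 31.3% of all tested genes, 16.1% higher and 15.2% lower. The median log2 fold change, written as BCL6LKOFXRKO over FXRKO throughout, was -0.31 over the 10 genes and 0.01 over all tested genes. With 10 genes picked by hand these shares are a description of the list.

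**Figure D1:**
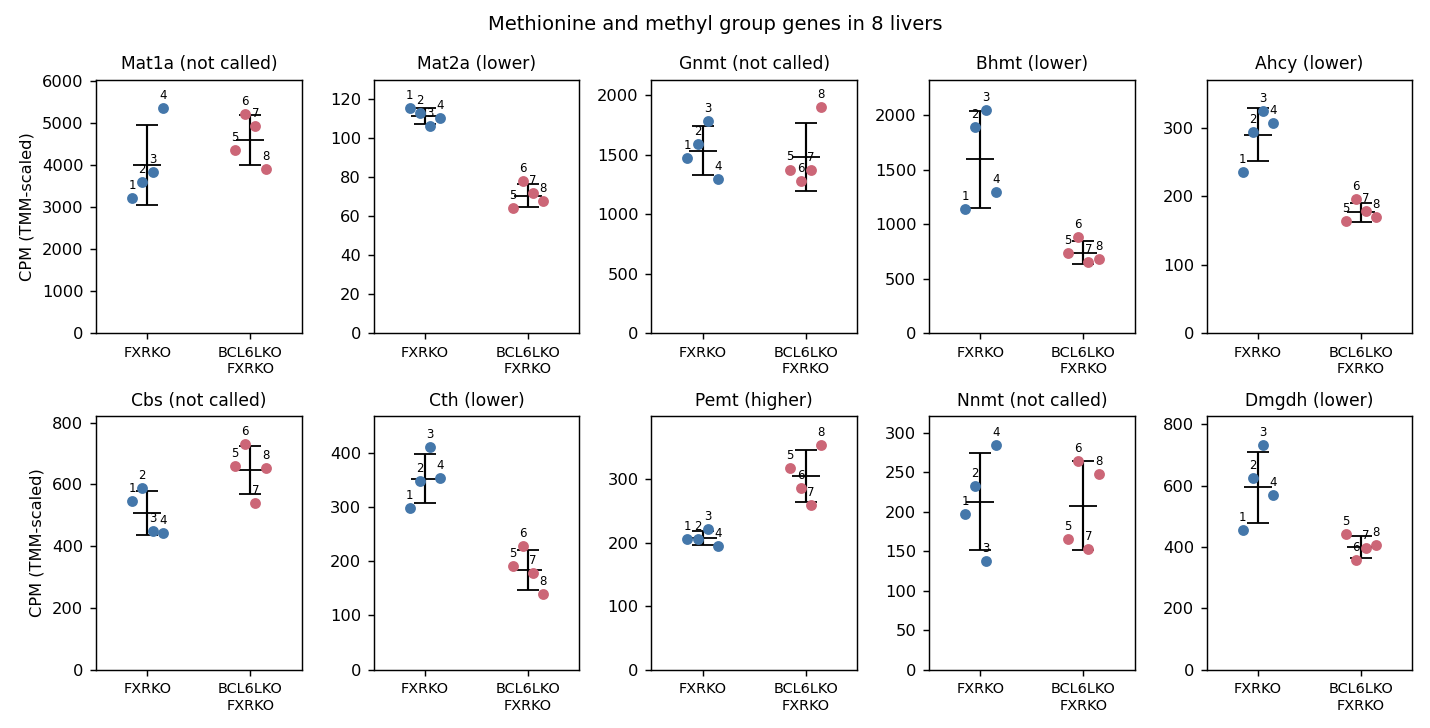
Levels of the 10 genes in CPM (counts scaled to library size with TMM factors), with 1 numbered point per liver (1 to 4 FXRKO, 5 to 8 BCL6LKOFXRKO) and bars for the group mean and SD (n = 4). Every axis starts at 0, and the groups lie apart for the 5 genes called lower and for *Pemt*, while *Mat1a*, *Gnmt*, *Cbs* and *Nnmt* overlap.

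Libraries held between 7586241 and 11839503 counts on genes. *Bcl6*, counted over the whole gene, checked the labels: it stood at 56.3, 65.2, 21.2 and 55.6 CPM in the 4 FXRKO livers and at 11.9, 4.61, 5.55 and 7.72 CPM in the 4 BCL6LKOFXRKO livers (log2 fold change -2.72, SE 0.40, adjusted p = 0.00124 in edgeR). FXRKO liver 3 was the lowest of its group and still above every BCL6LKOFXRKO liver. *Nr1h4* transcript was counted in both groups, at 60.0 ± 2.46 and 43.5 ± 3.69 CPM (SD, n = 4), so its level does not check the shared FXR deletion. It was called lower in BCL6LKOFXRKO livers (log2 fold change -0.46, adjusted p = 0.00498, edgeR) with the groups apart, and the reason was not tested. Albumin (*Alb*) took between 4.04 and 5.16% of the counts in FXRKO livers and between 11.9 and 13.2% in BCL6LKOFXRKO livers, which lowers the share left to other genes, and CPM and fold changes below are therefore on the TMM scale. With library totals alone in place of TMM the median of all genes moved by -0.16 on the log2 scale, and none of the 6 calls or their directions changed.

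Some cell type markers moved as well, and their part in the results below was not tested. Their counts stand beside 16.2% of all tested genes called higher and 13.5% called lower, and the lists are short. Of 10 stellate cell and fibroblast markers, 7 were called higher and none lower, with summed levels of 230.6 to 327.0 CPM against 468.1 to 586.0 CPM. Macrophage and monocyte markers had 3 of 9 called higher (281.0 to 386.8 against 375.8 to 552.4 CPM), cholangiocyte markers 2 of 5 (58.1 to 84.1 against 91.2 to 155.5 CPM), endothelial markers 2 of 7 (140.8 to 196.0 against 204.4 to 259.1 CPM) and proliferation genes 3 of 6 (12.0 to 15.2 against 20.2 to 36.1 CPM), with none lower in these lists. Among T and B lymphocyte markers 1 of 9 had enough counts for a test and was called higher (9.37 to 12.0 against 16.01 to 21.6 CPM for the list). The adipocyte markers *Lep* and *Plin1* were at 0 in every liver, *Adipoq* and *Retn* had at most 3 counts, and *Cfd* was called lower, with the list at 1.61 to 12.9 against 0.0908 to 0.292 CPM. All 9 hepatocyte markers were counted in both groups: *Alb* was higher, *Pck1*, *Ttr* and *Apob* were lower and *Hnf4a*, *Apoa1*, *Serpina1a*, *Tat* and *Cps1* were not called (summed 59280 to 73400 against 148300 to 166400 CPM, mostly *Alb*). In whole liver, fewer cells of a type and less RNA per cell cannot be told apart.

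The upstream sequences of 3 of the called genes are shown because they differ widely in CpG content. Each is 250 bases before the RefSeq start site (build GRCm38.p6, the mm10 build of the counts), written 5′ to 3′ on the gene's own strand with CpG dinucleotides in capitals. *Mat2a*, which fell, has its window at chr6:72439557-72439806 (minus strand), *Bhmt*, which also fell, at chr13:93637759-93638008 (minus strand), and *Pemt*, which rose, at chr11:60037006-60037255 (minus strand).
Mat2a: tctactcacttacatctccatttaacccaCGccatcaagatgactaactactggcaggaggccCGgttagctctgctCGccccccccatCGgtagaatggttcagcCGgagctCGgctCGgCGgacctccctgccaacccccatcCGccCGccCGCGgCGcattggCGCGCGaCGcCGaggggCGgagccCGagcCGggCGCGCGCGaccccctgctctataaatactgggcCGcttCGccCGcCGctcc
Bhmt: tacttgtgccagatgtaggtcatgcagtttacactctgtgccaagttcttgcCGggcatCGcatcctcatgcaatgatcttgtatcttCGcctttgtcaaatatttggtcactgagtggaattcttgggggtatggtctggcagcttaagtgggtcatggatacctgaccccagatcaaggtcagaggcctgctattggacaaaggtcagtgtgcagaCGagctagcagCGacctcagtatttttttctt
Pemt: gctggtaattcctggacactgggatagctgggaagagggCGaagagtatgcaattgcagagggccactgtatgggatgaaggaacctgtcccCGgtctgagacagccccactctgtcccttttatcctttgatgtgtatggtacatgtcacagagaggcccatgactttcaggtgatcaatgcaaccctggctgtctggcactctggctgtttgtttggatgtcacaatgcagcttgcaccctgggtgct
The *Mat2a* window holds 29 CpG, an observed over expected ratio of 1.061, in the 96.69th percentile of the 32851 RefSeq windows of that length. The *Bhmt* window holds 5 (ratio 0.35, 47.75th percentile) and the *Pemt* window 2 (ratio 0.116, 17.18th percentile), beside a median ratio of 0.373 over all windows. The ratio was 0.522 for *Ahcy* and 0.645 for *Dmgdh*, which also fell. For *Cbs* and *Gnmt*, which were not called, it was 0.741 and 0.263. Any link between CpG content and the direction of change was not tested. GC content was 67.6% for *Mat2a*, 48.0% for *Bhmt* and 52.8% for *Pemt*, with a median of 52.4%. The letters TTCNNNGAA, a palindrome that BCL6 and STAT proteins can bind and that reads the same on both strands, were found in 1 of the 8 windows given for 7 of the 10 genes and in 7.02% of all windows. That match lay in a second *Pemt* window, whose start is 3183 bases from that of the counted transcript. Windows for *Mat1a*, *Cth* and *Nnmt* were not analysed here. A match or its absence is a description of letters in a window.

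The first step, activation of methionine, is carried out by MAT1A in adult liver and by MAT2A in most other tissues and in growing or dedifferentiated hepatocytes. *Mat2a* (chr6:72432799-72439558, minus strand, 9 exons) fell. Its levels were 115.6, 113.0, 106.2 and 110.2 CPM in the 4 FXRKO livers and 64.3, 78.0, 71.8 and 67.7 CPM in the 4 BCL6LKOFXRKO livers, a log2 fold change of -0.66 (SE 0.10, 95% interval -0.88 to -0.44, adjusted p = 0.000381, edgeR). The lowest FXRKO liver stood above the highest BCL6LKOFXRKO liver, and the FXRKO group was the tightest of all 10 genes, with a coefficient of variation of 3.62%. *Mat1a* (chr14:41105033-41124428, plus strand, 10 exons) had 3203, 3596, 3826 and 5356 CPM against 4354, 5201, 4924 and 3886 CPM, a log2 fold change of 0.20 (SE 0.17, 95% interval -0.16 to 0.56, adjusted p = 0.395, edgeR). FXRKO liver 4 held the highest *Mat1a* level of all 8, above every BCL6LKOFXRKO liver, so the groups overlapped and a change of either sign within that interval was not excluded. *Mat2b*, the regulatory subunit that pairs with MAT2A, stood at 26.7 ± 4.53 and 25.5 ± 4.32 CPM (log2 fold change -0.07, adjusted p = 0.780).

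The balance of the liver and general isozymes was read as a ratio within each liver, on read counts divided by transcript length (the RPKM scale), which does not depend on the library's scaling. *Mat1a* over *Mat2a* was 22.3, 25.6, 29.0 and 39.1 in the FXRKO livers and 54.5, 53.6, 55.2 and 46.2 in the BCL6LKOFXRKO livers. Every BCL6LKOFXRKO liver had the higher ratio. On the log2 scale the mean ratio was 4.82 ± 0.35 against 5.71 ± 0.12 (SD, n = 4), a difference of 0.88 (exact permutation test, two-sided over all 70 orderings, p = 0.0286, the smallest that 4 against 4 allows, and 0.0429 after adjustment over the 3 ratios tested). Leaving out any 1 BCL6LKOFXRKO liver kept the groups apart at a difference of 0.86 to 0.94 but took the exact p to 0.0571. A ratio shows unequal change of the pair and does not say which of them changed.

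**Figure D2:**
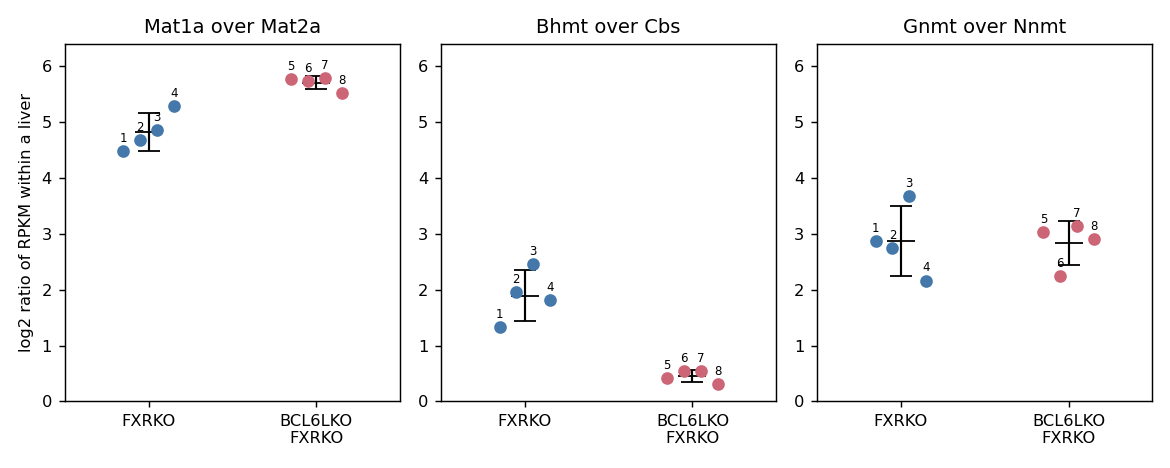
Within-liver log2 ratios of RPKM for *Mat1a* over *Mat2a*, *Bhmt* over *Cbs* and *Gnmt* over *Nnmt*, with 1 numbered point per liver and bars for the group mean and SD (n = 4). The first ratio is higher and the second lower in all 4 BCL6LKOFXRKO livers, with mean differences of 0.88 and -1.44, while the third overlaps (-0.03).

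Among the methyltransferases, *Pemt* rose and *Gnmt* and *Nnmt* did not pass the test. *Pemt* (chr11:59970614-60037005, minus strand, 7 exons) encodes the enzyme that methylates phosphatidylethanolamine to phosphatidylcholine. It stood at 205.4, 205.9, 221.7 and 194.9 CPM in FXRKO livers and at 317.5, 286.8, 259.4 and 354.6 CPM in BCL6LKOFXRKO livers (log2 fold change 0.56, SE 0.12, 95% interval 0.30 to 0.82, adjusted p = 0.00372, edgeR). The 4 FXRKO livers lay close together, all below the lowest BCL6LKOFXRKO liver. *Gnmt* (chr17:46725664-46729165, minus strand, 6 exons), whose product methylates glycine and disposes of excess S-adenosylmethionine, had 1470, 1589, 1784 and 1294 CPM against 1375, 1276, 1371 and 1901 CPM (log2 fold change -0.05, 95% interval -0.38 to 0.28, adjusted p = 0.833, edgeR). Liver 8 alone lifted the BCL6LKOFXRKO mean of *Gnmt*, the other 3 lying between 1276 and 1375 CPM. *Nnmt* (chr9:48591877-48605123, minus strand, 3 exons), which methylates nicotinamide, was the most variable of the 10 in both groups, at 197.6, 232.1, 137.1 and 284.2 CPM against 165.4, 263.7, 153.3 and 248.4 CPM (log2 fold change -0.04, 95% interval -0.55 to 0.48, adjusted p = 0.925, edgeR). Its coefficient of variation was 29.0% and 27.2%, and the interval leaves room for a change in either direction. *Gnmt* over *Nnmt* within a liver was 2.87 ± 0.62 and 2.83 ± 0.40 on the log2 RPKM scale (difference -0.03, exact permutation p = 1.0).

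*Ahcy*, the hydrolase that splits S-adenosylhomocysteine into adenosine and homocysteine, fell. It lies at chr2:155059312-155074497 (minus strand, 10 exons) and stood at 236.2, 293.9, 324.2 and 307.5 CPM in FXRKO livers and 163.5, 195.9, 178.5 and 170.0 CPM in BCL6LKOFXRKO livers (log2 fold change -0.72, SE 0.12, 95% interval -0.98 to -0.45, adjusted p = 0.000841, edgeR). FXRKO liver 1 was the lowest of its group and remained above all 4 BCL6LKOFXRKO livers. *Ahcyl2* encodes an AHCY-like protein and is not read here as an enzyme of this step. It fell from 18.0 ± 2.44 to 8.88 ± 2.34 CPM (log2 fold change -1.02, adjusted p = 0.00168, edgeR). *Adk*, the kinase that clears the adenosine, was chosen after its values were seen. *Adk* fell from 527.0 ± 27.8 to 391.0 ± 50.6 CPM (log2 fold change -0.43, adjusted p = 0.0178, edgeR).

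*Bhmt* had the largest fall of the 10. Its enzyme, betaine-homocysteine methyltransferase, moves a methyl group from betaine to homocysteine and returns methionine and dimethylglycine. *Bhmt* (chr13:93616891-93637758, minus strand, 8 exons) stood at 1143, 1893, 2045 and 1297 CPM in the FXRKO livers and 735.8, 884.1, 650.4 and 678.0 CPM in the BCL6LKOFXRKO livers (log2 fold change -1.11, SE 0.19, 95% interval -1.52 to -0.71, adjusted p = 0.000737, edgeR), a ratio of group means of 0.462. FXRKO livers spread widely (coefficient of variation 27.7% against 14.1%), with livers 2 and 3 high and livers 1 and 4 low, yet the lowest of them exceeded the highest BCL6LKOFXRKO liver. Dimethylglycine is then oxidised by the product of *Dmgdh* (chr13:93674436-93752823, plus strand, 16 exons), which stood at 455.3, 624.4, 732.4 and 568.7 CPM against 442.8, 356.5, 396.7 and 405.9 CPM (log2 fold change -0.57, SE 0.15, 95% interval -0.89 to -0.26, adjusted p = 0.0103, edgeR). The groups of *Dmgdh* lay apart by little, since FXRKO liver 1 at 455.3 CPM was close to BCL6LKOFXRKO liver 5 at 442.8 CPM. The folate-dependent route had *Mtr*, methionine synthase, at 3.18 ± 0.270 and 3.35 ± 1.31 CPM (adjusted p = 0.847) and its reductase *Mtrr* lower (9.28 ± 1.89 to 5.58 ± 0.900 CPM, log2 fold change -0.73, adjusted p = 0.0124, edgeR), both at low levels.

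*Bhmt* and *Dmgdh* are neighbours on chromosome 13, with *Bhmt2*, a homologue that uses S-methylmethionine, between them. *Bhmt2* lies 18338 bases beyond *Bhmt* on the same strand, and its start faces that of *Dmgdh* across 133 bases. *Bhmt2* stood at 201.7, 252.5, 280.5 and 254.5 CPM in FXRKO livers and 278.2, 263.1, 252.0 and 273.1 CPM in BCL6LKOFXRKO livers (log2 fold change 0.11, 95% interval -0.15 to 0.37, adjusted p = 0.526, edgeR). Its groups overlapped while both neighbours were called lower; the difference between *Bhmt2* and *Dmgdh* was not tested. The sequence between the facing starts is shown because it is all that separates a called gene from one that was not called, as chr13:93674303-93674435 on the plus strand (GRCm38.p6, from RefSeq), with CpG in capitals.
Bhmt2-Dmgdh: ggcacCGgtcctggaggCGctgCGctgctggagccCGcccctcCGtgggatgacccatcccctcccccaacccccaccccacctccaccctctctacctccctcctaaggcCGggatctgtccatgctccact
It holds 6 CpG, is 69.92% G and C, and has no TTCNNNGAA. *Bhmt* and *Bhmt2* are homologous, and only reads with 1 mapping location were kept by the authors, so reads that fit both were left out of both.

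Transsulfuration runs from homocysteine through cystathionine beta-synthase (*Cbs*) to cystathionine gamma-lyase (*Cth*). Of this pair *Cth* was called and *Cbs* was not, and the difference between their changes was not tested. *Cth* (chr3:157894248-157925063, minus strand, 12 exons) fell, from 298.4, 347.1, 410.5 and 352.6 CPM to 190.9, 227.8, 177.8 and 139.6 CPM (log2 fold change -0.94, SE 0.15, 95% interval -1.27 to -0.61, adjusted p = 0.000574, edgeR). All 4 BCL6LKOFXRKO livers were below the lowest FXRKO liver. *Cbs* (chr17:31612623-31637205, minus strand, 17 exons) had 545.5, 588.2, 449.5 and 443.0 CPM against 660.7, 730.7, 540.8 and 654.6 CPM, a log2 fold change of 0.35 (SE 0.14, 95% interval 0.06 to 0.65) that did not pass after adjustment in edgeR (adjusted p = 0.0679). BCL6LKOFXRKO liver 7 overlapped FXRKO livers 1 and 2, and *Cbs* was called higher by DESeq2 (adjusted p = 0.0475) and without that liver (log2 fold change 0.43, adjusted p = 0.0378, edgeR), but not with library totals alone (0.19, adjusted p = 0.282).

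BHMT and CBS draw on the same homocysteine, and *Bhmt* over *Cbs* by RPKM was 2.53, 3.88, 5.48 and 3.53 in FXRKO livers and 1.34, 1.46, 1.45 and 1.25 in BCL6LKOFXRKO livers. *Bhmt* exceeded *Cbs* in all 8 livers, by less in every BCL6LKOFXRKO liver. The mean log2 ratio was 1.89 ± 0.46 against 0.46 ± 0.11 (SD, n = 4), a difference of -1.44 (exact permutation p = 0.0286, 0.0429 adjusted over the 3 ratios). That p is the smallest that 4 against 4 allows. *Bhmt* alone already set the groups apart and *Cbs* leaned the other way, so this p is not support separate from the fall of *Bhmt*.

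**Figure D3:**
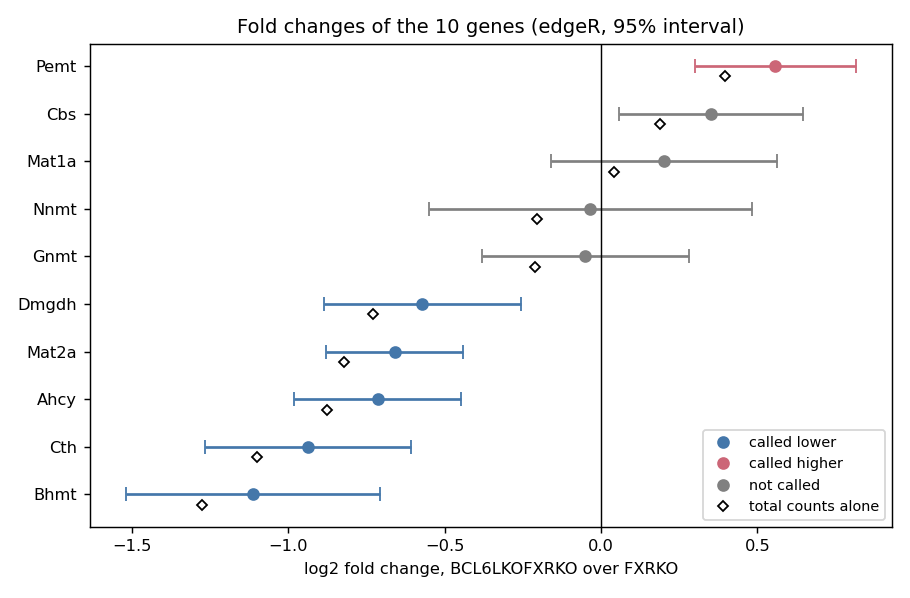
Log2 fold changes (BCL6LKOFXRKO over FXRKO) of the 10 genes with 95% intervals from edgeR, filled by call, and open diamonds for the value with library totals alone. The intervals of the 5 genes called lower and of *Pemt* lie on one side of 0 and so does that of *Cbs*, which was not called after adjustment, while the diamonds sit to the left of every point and keep its sign.

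Per transcript length, *Gnmt* and *Mat1a* had the highest RPKM levels of the 10 in both groups (1498 ± 201 and 1150 ± 272 in FXRKO, 1446 ± 277 and 1322 ± 169 in BCL6LKOFXRKO), and these neighbours overlapped. *Bhmt* was next in RPKM at 774 ± 214 in FXRKO and 358 ± 50.6 in BCL6LKOFXRKO livers. In FXRKO livers its range was clear of the gene after it and overlapped *Mat1a*, and in BCL6LKOFXRKO livers it was clear of *Mat1a* and overlapped the next gene, *Pemt*. In FXRKO livers *Nnmt*, *Pemt*, *Cbs*, *Dmgdh* and *Cth* had mean RPKM levels between 197 and 211 with overlapping ranges. In BCL6LKOFXRKO livers the order of mean RPKM was *Pemt* (306 ± 41.2), *Cbs* (260 ± 31.6), *Nnmt* (206 ± 56.0), *Dmgdh* (135 ± 12.0) and *Cth* (103 ± 20.4), with ranges of adjacent genes apart only between *Nnmt* and *Dmgdh*. *Ahcy* (115 ± 15.1 and 69.97 ± 5.55 RPKM) and *Mat2a* (39.8 ± 1.44 and 25.2 ± 2.12 RPKM) were last in both groups, each clear of the gene above it.

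For *Mat2a*, *Bhmt* and *Dmgdh* the annotation (GENCODE vM21) has a gene on the other strand that shares exon bases, *Particl* with 213 of 2804 bases of *Mat2a* (7.6%), *Gm15622* with 187 of 2490 of *Bhmt* (7.51%) and *AW495222* with 215 of 2992 of *Dmgdh* (7.19%). The kit was stranded, but a strand setting for the counting is not given in the sources used here, so reads over these bases cannot be assigned to a strand with certainty. *Particl* had between 54 and 95 counts in a liver beside 638 to 1165 for *Mat2a* (log2 fold change -0.31, adjusted p = 0.199, edgeR), and *AW495222* between 25.0 and 54.7 CPM beside 356.5 to 732.4 for *Dmgdh* (log2 fold change -0.44, adjusted p = 0.0747, edgeR).

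Around the 10 genes, 8 lists of linked enzymes and transporters held 119 genes, of which 112 were tested. Of these 15 (13.4%) were called higher and 41 (36.6%) lower, beside 16.2% and 13.5% of all tested genes, and their median log2 fold change was -0.24. The methionine cycle list outside the 10, AHCY-like genes included, had 1 of 8 higher and 4 lower (median log2 fold change -0.22). Choline oxidation and dimethylglycine breakdown had 1 of 9 higher and 4 lower (median -0.34). *Pipox*, which oxidises sarcosine and pipecolate, fell from 292 ± 30.7 to 103 ± 10.6 CPM (log2 fold change -1.50, adjusted p = 1.7e-06), and *Sardh*, the sarcosine dehydrogenase that acts after DMGDH, fell from 1272 ± 183 to 632 ± 53.3 CPM (log2 fold change -1.01, adjusted p = 0.000109, edgeR). The choline transporter gene *Slc44a2* rose from 7.63 ± 1.61 to 13.1 ± 1.23 CPM, and *Chdh*, which starts choline oxidation, stood at 256 ± 16.2 and 213 ± 22.9 CPM (log2 fold change -0.27, adjusted p = 0.0940).

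**Figure D4:**
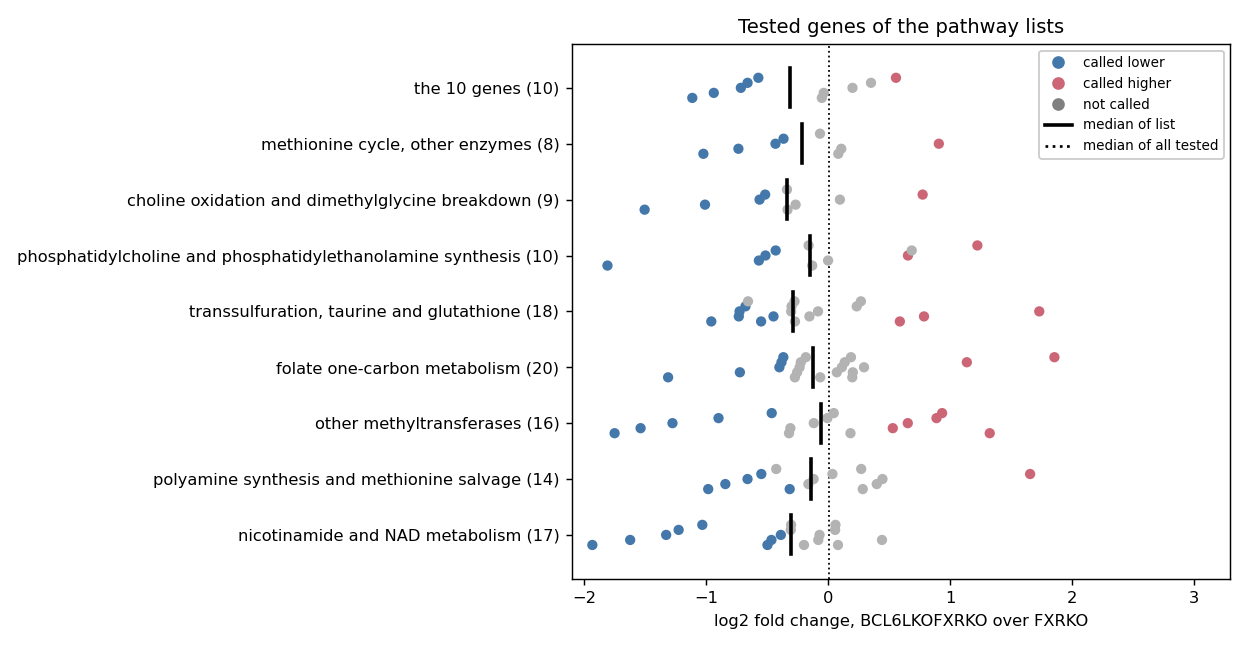
Log2 fold change of every tested gene of the 10 and of the 8 linked lists (number tested in brackets), coloured by call, with a bar for each list's median and a dotted line for the median of all tested genes (0.01). Medians lie between -0.34 and -0.06, and nicotinamide and NAD metabolism has 8 genes called lower and none higher. Over all tested genes 16.2% were called higher and 13.5% lower. The methyltransferase list includes *Gatm*, an amidinotransferase gene, and the polyamine list includes genes of polyamine breakdown and regulators of synthesis.

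A list for phospholipid synthesis held the genes that make phosphatidylcholine from choline, the alternative to PEMT, and those that make phosphatidylethanolamine, the substrate of PEMT. It had 2 of 10 tested genes higher (20%) and 4 lower (40%), beside 16.2% and 13.5% of all tested genes (median log2 fold change -0.14). The choline genes had *Pcyt1a* higher and *Chpt1* lower, and the phosphatidylethanolamine genes had *Pisd* higher and *Etnk1*, *Etnk2* and *Selenoi* lower, a split made after the values were seen. *Chpt1*, whose product joins choline to diacylglycerol in the last step, fell from 166 ± 13.2 to 47.3 ± 9.88 CPM (log2 fold change -1.81, adjusted p = 1.41e-06, edgeR). *Cept1*, the choline and ethanolamine phosphotransferase gene of the same list, was added after its values were seen. It stood at 48.4 ± 4.47 and 48.4 ± 10.1 CPM (log2 fold change 0.0003, adjusted p = 0.999, edgeR). *Pcyt1a*, which makes CDP-choline, rose from 83.1 ± 14.1 to 131 ± 22.03 CPM (log2 fold change 0.66, adjusted p = 0.0056). *Pisd*, whose product forms phosphatidylethanolamine from phosphatidylserine, rose from 45.8 ± 2.22 to 107 ± 4.29 CPM (log2 fold change 1.22, adjusted p = 1.43e-06), while the ethanolamine kinase gene *Etnk1* fell from 53.7 ± 4.94 to 36.3 ± 4.33 CPM (log2 fold change -0.57, adjusted p = 0.00368).

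Downstream of *Cth*, the transsulfuration, taurine and glutathione list had 3 of 18 tested genes higher (16.7%) and 6 lower (33.3%). All tested genes had 16.2% higher and 13.5% lower, and the median log2 fold change of the list was -0.29. *Csad*, which makes hypotaurine on the way to taurine, rose from 193 ± 40.7 to 640 ± 102 CPM (log2 fold change 1.73, adjusted p = 1.06e-05, edgeR). Glutathione synthetase (*Gss*) rose from 82.3 ± 8.29 to 124 ± 18.4 CPM (log2 fold change 0.59, adjusted p = 0.00351). *Baat*, which conjugates bile acids to taurine or glycine, fell from 317 ± 25.7 to 192 ± 25.2 CPM (log2 fold change -0.73, adjusted p = 0.000782), and *Oplah*, the oxoprolinase of glutathione turnover, fell from 174 ± 5.47 to 105 ± 16.2 CPM (log2 fold change -0.73, adjusted p = 0.000573).

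Other methyltransferases moved in both directions, 5 of 16 tested higher and 5 lower (median log2 fold change -0.06). *Tpmt*, which methylates thiopurines, fell from 54.6 ± 10.8 to 16.2 ± 2.73 CPM (log2 fold change -1.75, adjusted p = 6.71e-06, edgeR). *Gamt*, the last enzyme of creatine synthesis, rose from 165 ± 30.8 to 305 ± 50.9 CPM (log2 fold change 0.89, adjusted p = 0.00088), and the DNA methyltransferase gene *Dnmt3a* rose from 26.8 ± 2.74 to 51.1 ± 10.8 CPM (0.94, adjusted p = 0.000572).

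Folate one-carbon metabolism had 2 of 20 tested genes higher and 5 lower (median log2 fold change -0.12). *Ftcd*, which feeds one-carbon units from histidine into folate, fell from 319 ± 51.7 to 129 ± 39.9 CPM (log2 fold change -1.31, adjusted p = 0.000474, edgeR). *Dld*, a subunit that the glycine cleavage system shares with other dehydrogenase complexes, fell from 131 ± 8.64 to 99.2 ± 7.53 CPM (-0.40, adjusted p = 0.0117). The other glycine cleavage genes of the list, named after their values were seen, were not called. These were *Gldc* (0.30, adjusted p = 0.145), *Amt* (0.19, adjusted p = 0.303) and *Gcsh* (0.07, adjusted p = 0.632, edgeR). *Ggh*, which trims folate polyglutamates, rose from 7.41 ± 1.41 to 16.4 ± 2.13 CPM (1.14, adjusted p = 0.000285). Polyamine synthesis uses S-adenosylmethionine, and methionine salvage recycles its by-product methylthioadenosine to methionine. A list of their genes, with genes of polyamine breakdown and regulators of synthesis among them, had 1 of 14 higher and 5 lower (median -0.14). The 1 called higher was *Smox*, spermine oxidase, a gene of polyamine breakdown. *Smox* rose from 4.66 ± 1.51 to 14.6 ± 2.89 CPM (log2 fold change 1.66, adjusted p = 0.00019, edgeR). The antizyme inhibitor gene *Azin1* fell (90.8 ± 15.2 to 46.0 ± 11.5 CPM, -0.98, adjusted p = 0.00124). The antizyme gene *Oaz1*, named after its values were seen, fell as well (16.6 ± 3.45 to 10.5 ± 1.54 CPM, -0.66, adjusted p = 0.0132). *Amd1*, the decarboxylase of S-adenosylmethionine, also fell (14.8 ± 3.16 to 8.30 ± 1.97 CPM, -0.84, adjusted p = 0.00697, edgeR). *Amd1* has the near-identical copy *Amd2*, so its count is uncertain.

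Nicotinamide and NAD metabolism, the setting of *Nnmt*, had 8 of 17 tested genes lower (47.1%) and none higher (median log2 fold change -0.31). Over all tested genes 13.5% were called lower and 16.2% higher. *Tdo2*, which opens the route from tryptophan to NAD, fell from 964 ± 122 to 252 ± 42.9 CPM (log2 fold change -1.93, adjusted p = 1.08e-06), and *Kmo*, a later enzyme of that route, fell from 291 ± 14.9 to 94.4 ± 24.6 CPM (-1.62, adjusted p = 8.66e-06, edgeR). The others called lower were *Afmid*, *Kynu*, *Haao* and *Qprt* of the same route, *Nadsyn1* and the aldehyde oxidase gene *Aox3*, named after their values were seen. *Nampt*, which recycles nicotinamide, the substrate of NNMT, stood at 56.5 ± 16.2 and 53.5 ± 13.6 CPM (log2 fold change -0.08, adjusted p = 0.810).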

How the data were processed

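Liver polyA RNA of 8 male mice was made into stranded libraries and sequenced as single-end reads. STAR 2.5.2 placed the reads on mm10, uniquely mapped reads were retained, and the authors deposited raw counts on exons per gene from HOMER 4.10, beside a transcript length. The paper names DESeq2 for differential expression. Library names in the labels run from 1 to 4 (FXRKO) and 5 to 8 (BCL6LKOFXRKO). Each title also carries a number of its own, which the labels do not explain, and p-values measure the spread between these livers.

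Counts were fitted over all 8 livers in R 4.3.3 with edgeR 4.0.16 (filterByExpr, TMM, robust quasi-likelihood), adjusted by Benjamini-Hochberg over 12340 genes and called at an adjusted p under 0.05. CPM used TMM factors and RPKM the deposited lengths. DESeq2 1.42.0, limma 3.58.1 (voom with sample weights), other normalizations and filters, and leaving out each liver were alternatives. The scripts were tested on simulated data. Low-count genes are imprecise at these depths.

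All 10 genes, *Bcl6*, *Nr1h4* and *Alb* were named, plus the 2 smallest adjusted p in each direction among called genes of each list with a mean count of at least 50. Of the genes this rule gives, 2 are not reported here. The members, lists and markers were chosen with earlier results of these data known. Amino acid sequences were not used here.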

Additional observations from a re-analysis of the deposited data

Results flagged for a closer look

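In 7 of 78 groups of 4 livers, 1 liver stood apart, judged by its gap to the nearest other liver as a share of the group's whole range, against Dixon's 95% critical value. Chance gives about 1 in 20 such groups, here 3.9. *Gnmt* in BCL6LKOFXRKO liver 8 had a share of 0.841, at 1901 CPM beside 1276 to 1375 CPM in the other 3. The log2 ratio of *Mat1a* over *Mat2a* in BCL6LKOFXRKO liver 8 had 0.837, at 5.53 beside 5.74 to 5.79. *Chpt1* in FXRKO liver 3 had 0.928, at 185.3 beside 158.3 to 160.3 CPM. *Gss* stood apart in FXRKO liver 1 (0.840, at 94.6 beside 77.3 to 80.0 CPM) and in BCL6LKOFXRKO liver 8 (0.858, at 151.2 beside 112.3 to 117.8 CPM). *Mtrr* in BCL6LKOFXRKO liver 7 had 0.833, at 6.92 beside 4.94 to 5.27 CPM. *Pisd* in BCL6LKOFXRKO liver 6 had 0.868, at 100.7 beside 108.6 to 109.8 CPM. Liver 8 was the liver that stood apart in 3 of the 7.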

How the results depend on the processing

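*Bhmt*, *Cth*, *Ahcy*, *Mat2a* and *Dmgdh* were called lower and *Pemt* higher under every alternative that gave them a value, with largest adjusted p of 0.005, 0.00262, 0.00452, 0.0024, 0.0369 and 0.022. Under the alternatives, 142 fold changes of the 10 genes kept direction and call, 6 changed sign and 2 gained a call. *Cbs* was called higher with DESeq2 (0.35, adjusted p = 0.0475) and without BCL6LKOFXRKO liver 7, its values over single livers left out running from 0.28 to 0.43, which took the genes called higher from 1 to 2 (*Pemt* and *Cbs*) in both. *Gnmt* (-0.194 to 0.0248) and *Nnmt* (-0.20 to 0.13) changed sign when single livers were left out, neither called. With library totals alone 2949 genes were called lower in place of 1665. The log2 ratio of *Mat1a* over *Mat2a* ranged from 0.77 to 1.04 with single livers left out, with an exact p of 0.0571 without any 1 BCL6LKOFXRKO liver, where 3 against 4 allows no p under 0.0286. *Gnmt* over *Nnmt* ranged from -0.27 to 0.24 and *Bhmt* over *Cbs* from -1.62 to -1.25. Causes were not tested. No paired analysis was made, since no label names pairs of livers. The titles carry further numbers, some of them consecutive across the groups, and no label says that these mark a litter, batch or day. BCL6LKOFXRKO liver 5, whose title number is far from the rest, is among the livers left out in turn above.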
